A study of Homo sapiens with 8 samples.

Results

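The 10 genes described here encode forkhead transcription factors other than FOXA1: FOXA2, FOXA3, FOXO1, FOXO3, FOXK1, FOXK2, FOXP1, FOXN3, FOXM1 and FOXJ3. The mTOR peaks at these genes were taken as those whose nearest gene in the deposited annotation is one of the 10 and whose centre lies within 50 kb of a transcription start site (TSS) of that gene. The rule finds 90 of 125713 peaks on chromosomes 1 to 22, X and Y, with 32 in shFoxA1 R1881, 16 in shFoxA1 EtOH, 18 in shEV R1881 and 24 in shEV EtOH. Where peaks of different lists overlap they were merged, which gives 42 regions. The libraries come from LNCaP, an established androgen-responsive prostate cancer line, after chromatin immunoprecipitation (ChIP) of mTOR. The cells carried shFoxA1, a short hairpin that knocks down FoxA1, or shEV, the empty vector. All were kept for 48 h in 2% charcoal-stripped serum to remove androgen, then given the synthetic androgen R1881 (10 nM) or the vehicle EtOH (0.1%) for 24 h. Each of the 4 groups is 1 library, so nothing below has a replicate check or a p-value. The sources used here do not say whether the hairpin cells were a clone or a pool, and RNA was not measured, so neither the knockdown nor the cell line's marker expression was checked.

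Forkhead factors share a winged-helix DNA-binding domain and read words built around TGTTTAC. FOXA factors are pioneers that open chromatin in endoderm-derived epithelia such as prostate, where FOXA1 guides the androgen receptor. FOXO factors are switched off by AKT, a kinase that mTOR complex 2 activates, and FOXK factors repress autophagy genes and are themselves controlled by mTOR complex 1. mTOR itself is a kinase best known at lysosomes, and a ChIP peak here marks chromatin recovered with its antibody, not direct contact with DNA.

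The promoter sequences below carry the clearest contrasts among the forkhead genes. Each is a RefSeq window of 300 bases (GRCh38.p14) on the gene's own strand, from 250 bases before to 50 after a TSS, with capitals for the GC box GGGCGG and the forkhead core TGTTTAC, both searched on either strand (overlapping GC boxes run together). The FOXK2 window (chr17:82519482-82519781, plus strand) and the main FOXP1 window (chr3:71583679-71583978, minus strand) were overlapped by a peak in all 4 lists. The FOXJ3 window (chr1:42335186-42335485, minus strand) was overlapped in every list but shEV EtOH. An internal FOXP1 window (chr3:71245028-71245327, minus strand) had no peak and is the only forkhead gene window with the core word.
FOXK2: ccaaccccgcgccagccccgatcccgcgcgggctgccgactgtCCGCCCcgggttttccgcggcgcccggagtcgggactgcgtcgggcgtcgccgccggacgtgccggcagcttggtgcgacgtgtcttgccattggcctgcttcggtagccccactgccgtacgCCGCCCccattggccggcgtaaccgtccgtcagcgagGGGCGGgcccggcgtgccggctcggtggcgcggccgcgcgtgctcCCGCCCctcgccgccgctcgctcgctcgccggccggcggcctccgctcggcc
FOXP1 main: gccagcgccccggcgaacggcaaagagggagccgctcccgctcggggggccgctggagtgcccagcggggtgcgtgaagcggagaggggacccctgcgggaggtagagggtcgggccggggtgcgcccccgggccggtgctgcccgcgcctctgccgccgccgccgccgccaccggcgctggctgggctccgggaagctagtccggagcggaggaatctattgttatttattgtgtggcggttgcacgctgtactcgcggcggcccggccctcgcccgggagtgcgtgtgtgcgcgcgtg
FOXJ3: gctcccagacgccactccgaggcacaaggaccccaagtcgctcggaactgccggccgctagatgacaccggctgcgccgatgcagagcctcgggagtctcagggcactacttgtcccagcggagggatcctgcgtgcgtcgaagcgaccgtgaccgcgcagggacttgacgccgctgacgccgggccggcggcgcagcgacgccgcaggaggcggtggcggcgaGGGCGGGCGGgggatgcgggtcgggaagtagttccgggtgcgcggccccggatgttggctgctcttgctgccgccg
FOXP1 internal: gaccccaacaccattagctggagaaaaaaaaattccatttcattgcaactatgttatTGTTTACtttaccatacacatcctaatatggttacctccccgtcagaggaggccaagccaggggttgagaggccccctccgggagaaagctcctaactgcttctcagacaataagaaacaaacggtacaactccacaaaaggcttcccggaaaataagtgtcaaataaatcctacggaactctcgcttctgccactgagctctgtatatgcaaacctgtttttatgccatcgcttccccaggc

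The windows that carried mTOR peaks were mostly rich in G and C bases, and none held the forkhead core. RefSeq windows were found for 8 of the 10 genes, 18 windows in all, of which 10 were overlapped by a peak in at least 1 list. Their GC content ran from 42.0% to 79.0% with a median of 75.0%. The 8 windows without a peak ran from 39.3% to 84.3% with a median of 51.0%, and all promoter windows had a median of 58.7%. The core word TGTTTAC stood in 1 of the 18 windows, the internal FOXP1 one, and in 3.42% of all 35116 promoter windows. The shorter word TGTTT, which lies inside the core, stood in 3 of the 10 windows with a peak, 5 of the 8 without and 44.4% of all windows. The androgen receptor word AGAACA stood in 1 of the 18, against 14.8% of all windows, and the full palindromic androgen response element in none. GC boxes were found in 8 of the 10 windows with a peak, 4 of the 8 without and 45.0% of all windows. The main FOXP1 window has no GC box, so neither word is common to the windows overlapped in all 4 lists. In shFoxA1 R1881 7 of the 18 windows were overlapped by a peak, against 16.5% of all windows, and in shFoxA1 EtOH 9 were, against 17.3%. In shEV R1881 it was 6, against 7.69%, and in shEV EtOH 4, against 8.41%. The windows are not independent: FOXO3 and FOXJ3 gave most of those with a peak, and FOXP1 most of those without. Some FOXO3 windows overlap each other in sequence, as do some FOXJ3 windows, so 1 peak can count for more than 1 window.

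mTOR peaks were found at 9 of the 10 genes in at least 1 list and at 6 of them in all 4. In shFoxA1 R1881 8 of the 10 genes had a peak, against 51.6% of all 20037 coding genes, and in shFoxA1 EtOH 8 did, against 49.1%. In shEV R1881 7 of the 10 had one, against 37.5%, and in shEV EtOH 8, against 36.5%. FOXA3 had none anywhere, FOXM1 had 1 peak in 1 list, and FOXK2 had the most, with 18 peaks over the 4 lists. The gene bodies range from 4.49 kb for FOXA2 to 629 kb for FOXP1, and long genes offer more sequence and more start sites. At the rule's distance limit, the outermost peaks inside were 42749 and 43291 bp from FOXK1 and 47800 bp from FOXN3, and the nearest outside were 50861, 51061 and 51129 bp from FOXP1.

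**Figure D1:**
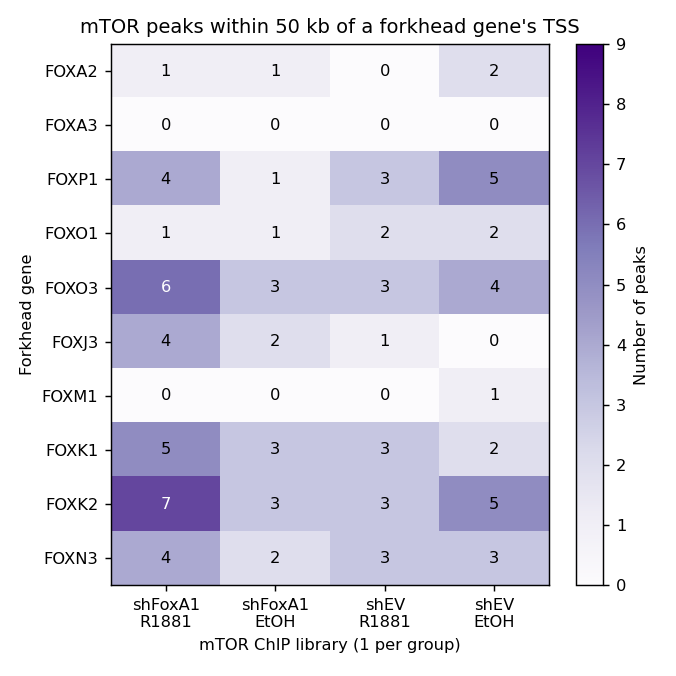
Number of mTOR peaks within 50 kb of the TSS of each forkhead gene (rows) in each library (columns), with colour and digit giving the count. FOXK2 reaches 7 and FOXO3 6 in shFoxA1 R1881, FOXA3 is at 0 throughout, and shFoxA1 EtOH has the fewest peaks in all, 16.

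The number of forkhead gene peaks did not follow the length of the lists. The lists held 39570 peaks in shFoxA1 R1881, 35121 in shFoxA1 EtOH, 26074 in shEV R1881 and 24948 in shEV EtOH, so the longer shFoxA1 EtOH list gave the fewest at these genes and the shortest list gave 24. Per 1000 peaks near coding genes there were 1.64 forkhead gene peaks in shFoxA1 R1881 (Wilson 95% interval 1.17 to 2.32), 0.941 in shFoxA1 EtOH (0.579 to 1.53), 1.51 in shEV R1881 (0.953 to 2.38) and 2.14 in shEV EtOH (1.44 to 3.18). Intervals cover counting error only, and peaks of a gene are not independent. How peaks were cut entered these counts. Stretches at FOXP1 and FOXO1 that formed a pair of peaks in both shEV lists were a single wider peak in both shFoxA1 lists. In sequence covered, shFoxA1 EtOH was not the lowest list. The forkhead gene peaks covered 24.1 kb in shFoxA1 R1881 and 16.9 kb in shFoxA1 EtOH. They covered 11.6 kb in shEV R1881 and 14.3 kb in shEV EtOH. The read depth of the libraries is unknown, and its part in the lengths of the lists was not tested.

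FOXA2 and FOXA3 are the closest relatives of FOXA1, and both had little mTOR signal. FOXA2 had 1 peak in shFoxA1 R1881 (score 20, in the first intron, 855 bp from the TSS) and 1 in shFoxA1 EtOH (score 49, promoter, -403 bp). It had 0 in shEV R1881 and 2 in shEV EtOH, an intronic one (score 42, 846 bp) and a promoter one (score 34, 460 bp from the TSS of the other FOXA2 transcript). Scores are the authors' own and can be ranked only within a list. The FOXA2 peak with the highest rank stood at percentile 40.9 of its list, below the middle of shFoxA1 EtOH. The FOXA2 promoter region (chr20:22584557-22585226) had a peak in each EtOH list and no R1881 list, and is the sole forkhead gene region with that pattern, which made up 2.73% of all regions near coding genes. The intronic region was present in shFoxA1 R1881 and shEV EtOH. Around FOXA3, peaks lay 21 to 23 kb away at the promoter and exon of the neighbouring gene IRF2BP1, to which the annotation assigns them: 1 in shFoxA1 R1881, 2 in shFoxA1 EtOH, 0 in shEV R1881 and 1 in shEV EtOH.

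FOXO1 and FOXO3, the AKT-restrained factors that promote cell cycle exit and stress resistance, carried GC-rich peaks at their 5′ ends in every list. At FOXO1 a region over the first exon and the start of the first intron (chr13:40664404-40666826) held all of the gene's peaks. It formed 1 peak in shFoxA1 R1881 (2053 bp, score 197) and 1 in shFoxA1 EtOH (2278 bp, score 235), but 2 in shEV R1881 (scores 42 and 58) and 2 in shEV EtOH (scores 115 and 105). The best FOXO1 peak stood at percentile 88.9 in shFoxA1 R1881, 90.1 in shFoxA1 EtOH, 50.1 in shEV R1881 and 76.8 in shEV EtOH. No FOXO1 peak was gained or lost in any of the 4 comparisons.

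FOXO3 had 6 peaks in shFoxA1 R1881, 3 in shFoxA1 EtOH, 3 in shEV R1881 and 4 in shEV EtOH. A region over the promoters and the first exon (chr6:108559208-108562899) and another about 2 kb upstream (chr6:108557265-108558743) had peaks in all 4 lists. The best peak was the exon peak in shFoxA1 R1881 (score 92), in shFoxA1 EtOH (188) and in shEV EtOH (58), and a promoter peak at -122 bp in shEV R1881 (85). Other promoter peaks scored 49 in shFoxA1 EtOH and 50 in shEV EtOH. The wide regions conceal narrow peaks that did not overlap. With shEV, the R1881 promoter peak counts as gained. Lost with shEV were 1 EtOH peak of the promoter region, at -395 bp, and 1 of the upstream region, at -2278 bp. Outside both regions, 4 peaks were found in shFoxA1 R1881 and in no other list. By the deposited distances 1 lay at -2943 bp (score 41) and 3 in an intron at 24298, 28411 and 32415 bp, with scores of 41, 34 and 49. RefSeq also has a FOXO3 start at chr6:108588773, just upstream of the middle intronic peak (chr6:108589020-108589636). All 4 peaks scored below the list's median of 65.

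FOXK1 and FOXK2, repressors that act with mTOR complex 1 signalling in fed cells, had distal peaks that recurred in all 4 lists. Upstream of FOXK1, a region about 40 kb from the TSS (chr7:4641219-4642366), in a CpG island or next to a simple repeat of CCCTG units, scored 186 in shFoxA1 R1881, 144 in shFoxA1 EtOH, 135 in shEV R1881 and 180 in shEV EtOH. A nearer region about 8 kb upstream (chr7:4673869-4674630), in Alu and L1 sequence, scored 65 in shFoxA1 R1881, 166 in shFoxA1 EtOH, 95 in shEV R1881 and 136 in shEV EtOH. These hold the best FOXK1 peak of every list, the distal region in all but shFoxA1 EtOH. An intronic FOXK1 region (chr7:4724705-4725834, about 43 kb from the TSS) was present in both shFoxA1 lists (score 20 in R1881, 34 in EtOH) and in neither shEV list, and no other forkhead gene region had that pattern, against 8.39% of all regions near coding genes. The FOXK1 promoter window itself, 84.3% G and C, had no peak in any list, and the nearest peak lay 647 bp into the gene in shFoxA1 R1881 (score 49).

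FOXK2 had 7 peaks in shFoxA1 R1881, 3 in shFoxA1 EtOH, 3 in shEV R1881 and 5 in shEV EtOH. Its promoter peak (region chr17:82518805-82519690) was in all 4 lists, with scores of 197 in shFoxA1 R1881, 223 in shFoxA1 EtOH, 125 in shEV R1881 and 105 in shEV EtOH, and centres between -532 and -454 bp from the TSS. A region 25 kb upstream (chr17:82494278-82495211), annotated to a tRNA-Met repeat in shEV R1881 and to no repeat in the others, was also in all 4. It scored 153 in shFoxA1 R1881, 259 in shFoxA1 EtOH, 157 in shEV R1881 and 203 in shEV EtOH. An intronic region near 2 kb (chr17:82521025-82522556) had peaks in every list but shFoxA1 EtOH, a pattern of 1.37% of all regions near coding genes. An upstream CpG island region (chr17:82496769-82498090) had peaks in every list but shEV R1881, a pattern of 5.67% of such regions.

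FOXP1 and FOXN3 encode repressors, FOXP1 in many epithelia and lymphocytes and FOXN3 in the checkpoint response. The main FOXP1 promoter and the start of its first intron (chr3:71582014-71584234) had 1 peak in shFoxA1 R1881 (score 153) and 1 in shFoxA1 EtOH (103). The same stretch had 2 in shEV R1881 (intronic 67, promoter 42) and 2 in shEV EtOH (intronic 58, promoter 125). It held the gene's best peak in every list. The other 6 FOXP1 regions were each found in 1 or 2 lists, and 4 of them lay in introns. Beyond 50 kb FOXP1 had 10 further peaks in shFoxA1 R1881, 4 in shFoxA1 EtOH, 9 in shEV R1881 and 6 in shEV EtOH, more than it had within the limit in each list. FOXK1 likewise had more beyond than within in each list, with 9 beyond in shFoxA1 R1881, 8 in shFoxA1 EtOH, 5 in shEV R1881 and 6 in shEV EtOH. FOXN3 had more beyond than within in both shFoxA1 lists, with 5 beyond in R1881 and 4 in EtOH, against 2 in each shEV list.

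The strongest forkhead gene peak lay in the first intron of FOXN3, about 20 kb from the TSS (chr14:89597200-89599213), in L1 and Alu sequence with only 31.3% to 35.0% G and C in the FOXN3 peaks. It scored 494 in shFoxA1 R1881, 797 in shFoxA1 EtOH, 420 in shEV R1881 and 367 in shEV EtOH. Those scores stood at percentile 96.8 in shFoxA1 R1881, 98.4 in shFoxA1 EtOH, 96.1 in shEV R1881 and 94.9 in shEV EtOH. In shFoxA1 R1881 the region was split, and its other peak (score 175) was assigned to the antisense gene FOXN3-AS2, so it is not counted at FOXN3. The FOXN3 promoter had a peak in shEV EtOH (score 20, -162 bp, chr14:89619028-89619626), and shFoxA1 R1881 had one 655 bp into a shorter FOXN3 transcript (score 57, chr14:89416303-89416853), annotated to the promoter of the antisense gene FOXN3-AS1. An intergenic region 38 kb upstream was present in shFoxA1 EtOH (score 75) and shEV R1881 (score 58).

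FOXM1 drives genes of mitosis, and FOXJ3 is a widely expressed activator studied in mouse muscle and germ cells. FOXM1 had 1 peak, at its promoter in shEV EtOH (score 27, 198 bp, percentile 15.1). FOXM1 shares this promoter with RHNO1, which is transcribed the other way. Peaks in the same region, which the annotation also places in a FOXM1 promoter, were assigned to RHNO1 by the nearest TSS in shFoxA1 R1881 (1393 bp, score 74) and shFoxA1 EtOH (800 bp, score 42). Whatever the gene assigned, shEV R1881 was the list without a peak at the shared promoter (chr12:2876782-2878214), and the count of 1 at FOXM1 holds only for the nearest-gene assignment.

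FOXJ3 had 4 peaks in shFoxA1 R1881, 2 in shFoxA1 EtOH, 1 in shEV R1881 and 0 in shEV EtOH. Its promoter peak (chr1:42334910-42335845) scored 132 in shFoxA1 R1881 (percentile 81.5), 297 in shFoxA1 EtOH (percentile 92.8) and 125 in shEV R1881 (percentile 79.6). It is the sole forkhead gene region present in every list but shEV EtOH, a pattern that made up 5% of all regions near coding genes. A further promoter peak at an upstream FOXJ3 start was found in shFoxA1 EtOH (score 42, -722 bp), and 3 peaks at -8763, -4469 and 30365 bp from a TSS were found in shFoxA1 R1881 alone, with scores of 65, 83 and 83.

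**Figure D2:**
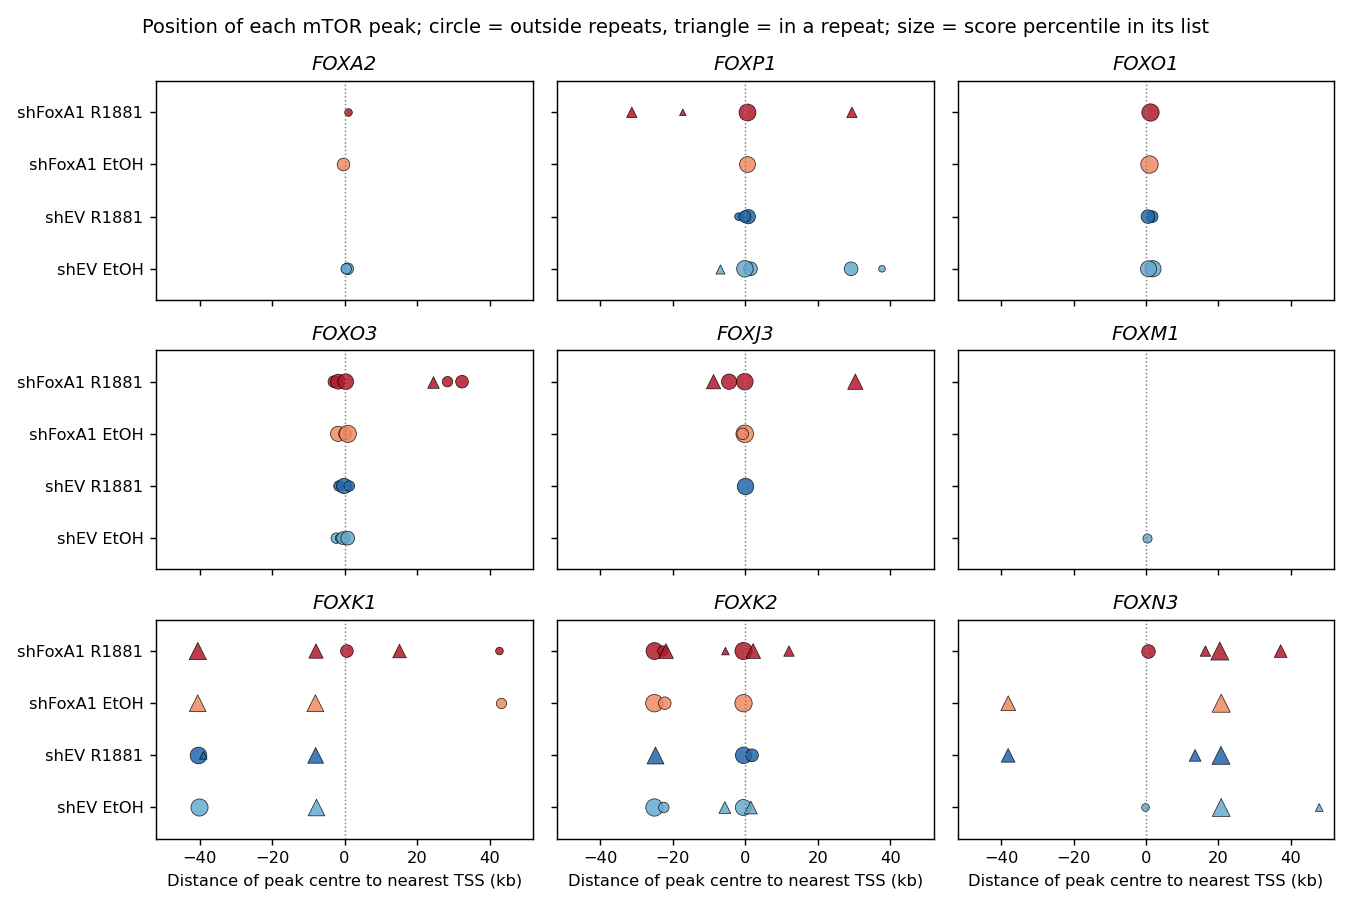
Distance of each peak centre to the nearest TSS in kb, 1 panel per gene and 1 row per library, with triangles for peaks in repeats and marker size for the score percentile within the list. Peaks recur in all rows near the starts of FOXP1, FOXO1, FOXO3 and FOXK2 and at fixed distal places of FOXK1, FOXK2 and FOXN3, while the FOXO3 and FOXJ3 peaks beyond 4 kb appear in the shFoxA1 R1881 row alone.

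With the FoxA1 hairpin there were more forkhead gene peaks in R1881 (32) than in EtOH (16), and with the empty vector there were fewer in R1881 (18) than in EtOH (24). Here a gained peak is one with no overlapping peak in the list it is set against, and a lost peak the reverse. Both describe presence in thresholded lists. With shFoxA1, 19 of the 32 R1881 peaks were gained, or 59.4% (42.3 to 74.5), against 43.1% of all peaks near coding genes. In the same pair 3 of the 16 EtOH peaks were lost, or 18.8% (6.59 to 43.0), against 34.9%. With shEV, 6 of the 18 R1881 peaks were gained, or 33.3% (16.3 to 56.3), against 46.1%, and 12 of the 24 EtOH peaks were lost, or 50% (31.4 to 68.6), against 42.5%. All 4 intervals include the share over all peaks. The difference in this response between shFoxA1 and shEV cells was not tested, since each group is a single library.

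With shFoxA1 the gains were spread over 7 genes, FOXO3 with 4, FOXP1, FOXJ3, FOXK2 and FOXN3 with 3 each, FOXK1 with 2 and FOXA2 with 1. Of the 19, 12 lay in repeats (63.2%, against 51.9% of all gained peaks near coding genes) and 1 in a promoter (5.26%, against 13.1%). Their median score was 41, against 132 for the shared forkhead gene peaks of that list. Over all peaks near coding genes gained ones also had a median of 41, and shared ones 83. The highest-scoring gained peaks, with 83 each, were at FOXJ3. With shEV the gains lay at FOXP1, FOXO3, FOXJ3, FOXK1 and FOXN3, and the highest was the FOXJ3 promoter peak (score 125). The 12 losses with shEV were at FOXA2, FOXP1, FOXO3, FOXM1, FOXK2 and FOXN3. Of these, 4 were promoter peaks (33.3%, against 18.9% of all lost peaks near coding genes). FOXJ3 and FOXK1 had more peaks with R1881 than with EtOH in both shFoxA1 and shEV cells, while no region had peaks in each R1881 list and no EtOH list. With each list cut to its 10000 top peaks by score, 1 of 7 R1881 forkhead gene peaks was gained with shFoxA1 (14.3%, against 33.4% of all such peaks near coding genes) and 2 of 8 EtOH peaks were lost (25%, against 32.5%). With shEV 2 of 7 were gained (28.6%, against 36.5%) and 3 of 8 lost (37.5%, against 35.1%).

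In R1881 there were more forkhead gene peaks with shFoxA1 (32) than with shEV (18), and in EtOH there were fewer with shFoxA1 (16) than with shEV (24). The fewer EtOH peaks with shFoxA1 covered more sequence, 16.9 kb against 14.3 kb with shEV. Stretches at FOXP1, FOXO1 and upstream of FOXO3 were 2 peaks each in shEV EtOH and 1 each in shFoxA1 EtOH. The shFoxA1 EtOH peak at the FOXM1 promoter was assigned to RHNO1. In R1881, 21 of the 32 shFoxA1 peaks were gained over shEV, or 65.6% (48.3 to 79.6), against 54.6% of all peaks near coding genes. In R1881, 4 of the 18 shEV peaks were lost, or 22.2% (9.0 to 45.2), against 25.5%. In EtOH, 4 of the 16 shFoxA1 peaks were gained, or 25% (10.2 to 49.5), against 51.2%. This interval lies below the share over all peaks, but it covers counting error only, and peaks of a gene are not independent. The 16 peaks were also wider, with a median of 895 bp against 502 bp for all shFoxA1 EtOH peaks near coding genes. The part of peak width in this share was not tested. In EtOH 8 of the 24 shEV peaks were lost, or 33.3% (18.0 to 53.3), against 25.3%. The gains in EtOH were 2 promoter peaks of FOXJ3, including the one with score 297, the FOXK1 intronic peak and the FOXN3 upstream peak. The losses in EtOH were at FOXA2, FOXP1, FOXK2 and FOXN3, with scores of 58 or less. The R1881 and knockdown comparisons share libraries, so their counts are not independent. When sharing required that at least 50% of a peak be overlapped, 9 of 16 peaks were gained in EtOH, or 56.2% (33.2 to 76.9), against 58.8% of all peaks near coding genes, so under that setting the interval no longer lies below the share over all peaks. In the lists cut to 10000 peaks, 2 of 7 were gained in R1881 (28.6%, against 33.6%) and 2 of 7 lost (28.6%, against 29.7%), and in EtOH 2 of 8 were gained (25%, against 32.5%) and 1 of 8 lost (12.5%, against 28.0%).

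**Figure D3:**
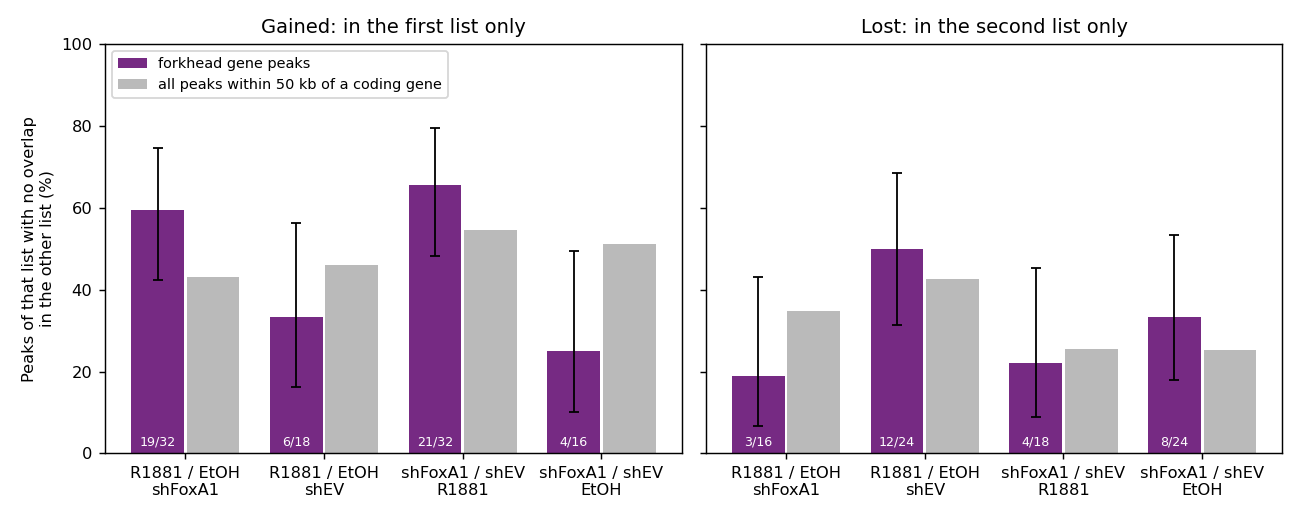
Share of forkhead gene peaks (purple, Wilson 95% intervals, counts at the foot) and of all peaks near coding genes (grey) that are gained (left) or lost (right) in each comparison of 2 libraries. Gains with R1881 stand at 59.4% for shFoxA1 and 33.3% for shEV, and in EtOH the gain with shFoxA1 over shEV is 25% beside 51.2% of all peaks.

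Sorted by presence, 15 of the 42 forkhead gene regions, or 35.7%, had a peak in shFoxA1 R1881 alone, against 20.2% of the 28855 regions near coding genes. A further 9, or 21.4%, had a peak in all 4 lists, against 19.1%. A peak in shFoxA1 EtOH alone was found for 1 region, the upstream FOXJ3 promoter peak, while that pattern made up 14.6% of all regions near coding genes. A peak in shEV R1881 alone was found for 3 regions, or 7.14%, against 6.52%, and in shEV EtOH alone for 4, or 9.52%, against 5.49%. The pattern of both R1881 lists alone, 5.25% of all such regions, had no forkhead gene member, and neither had that of both shEV lists alone, 0.731%.

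The 9 regions present in all 4 lists were wider with the FoxA1 hairpin at 6 places. At these 6, in FOXP1, FOXO1, FOXO3 (both regions), FOXK1 (the 40 kb region) and FOXK2 (the promoter), both shFoxA1 lists covered more sequence than both shEV lists, and none of the 9 had the reverse order. Over all 5500 such regions near coding genes 35.5% had the first order and 6.65% the reverse. At the FOXO3 start peaks covered 3006 bp in shFoxA1 R1881, 2864 bp in shFoxA1 EtOH, 1344 bp in shEV R1881 and 1504 bp in shEV EtOH. At the FOXP1 start they covered 1793 bp in shFoxA1 R1881, 1816 bp in shFoxA1 EtOH, 1226 bp in shEV R1881 and 1077 bp in shEV EtOH. The exceptions were the FOXK1 region 8 kb upstream, the FOXK2 region 25 kb upstream and the FOXN3 intronic region. By treatment there was no such order: 1 of the 9 was wider in both R1881 lists than in both EtOH lists, and 1 was narrower, against 16.1% and 15.4% of all such regions. Covered length depends on read depth, which is unknown, and its part in the widths was not tested.

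**Figure D4:**
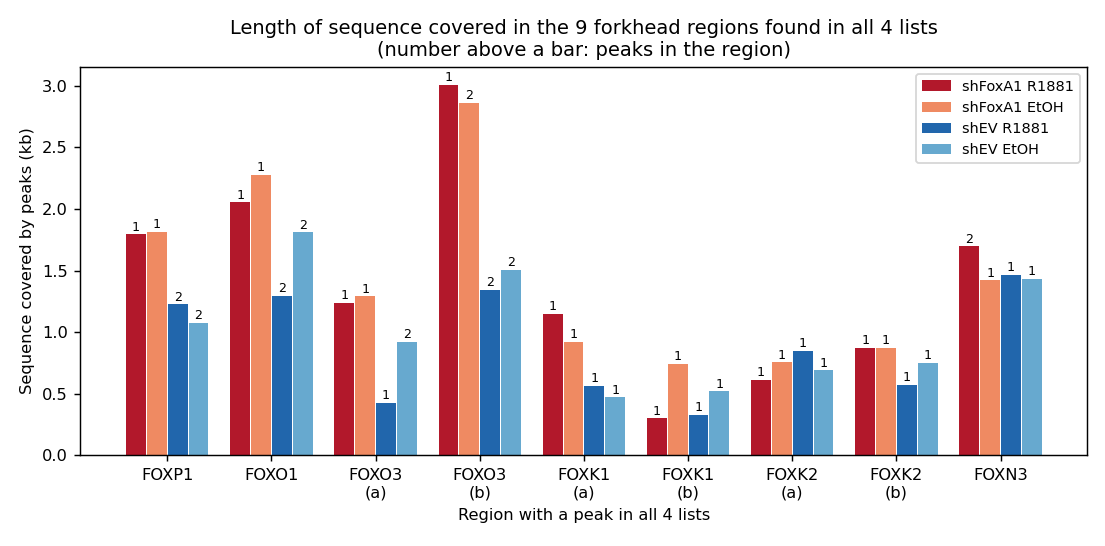
Length of sequence covered by peaks in kb (bars) in the 9 forkhead gene regions present in all 4 lists, with the number of peaks above each bar. For genes with 2 regions, (a) is the one at the lower coordinate. The shFoxA1 bars exceed both shEV bars at FOXP1, FOXO1, FOXO3 (a, b), FOXK1 (a) and FOXK2 (b).

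Of the 90 peaks 45 lay within 3 kb of a TSS and 45 farther out, by the deposited distances. The 45 near peaks had a median GC content of 68.1%, against 63.5% for all near peaks at coding genes, and the 45 far ones 47.3%, against 43.3%. Repeats held 2 of the near peaks (4.44%, against 10.5% of all near peaks) and 30 of the far ones (66.7%, against 73.7%), so that split is one that peaks at coding genes share in general. A peak in each other list was overlapped by 24 of the near peaks (53.3%, against 35.2% of all) and 16 of the far ones (35.6%, against 37.0%). These counts pool the 4 lists, so a shared region enters at least once per list. The 24 near peaks come from FOXP1, FOXO1, FOXO3 and FOXK2 only. With each region counted once, near and far together, 21.4% had a peak in all 4 lists, against 19.1%. In shFoxA1 R1881 21 of the 32 peaks were far from a TSS (65.6%, against 63.1% of all), and 12 of these 21 were in that list only (57.1%, against 32.6%). The far share was 43.8% in shFoxA1 EtOH (7 of 16), against 58.8% of all peaks near coding genes. It was 38.9% in shEV R1881 (7 of 18), against 68.9%, and 41.7% in shEV EtOH (10 of 24), against 65.5%. Repeats held 50% of the forkhead gene peaks in shFoxA1 R1881, 25% in shFoxA1 EtOH, 33.3% in shEV R1881 and 25% in shEV EtOH. Of all peaks near coding genes 48.3% lay in repeats in shFoxA1 R1881, 46.6% in shFoxA1 EtOH, 55.9% in shEV R1881 and 55.1% in shEV EtOH. The shFoxA1 EtOH peaks had a median score percentile of 77.2, against 48.7 for all its peaks near coding genes, whereas the shFoxA1 R1881 members stood at 49.5, like all such peaks of that list.

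**Figure D5:**
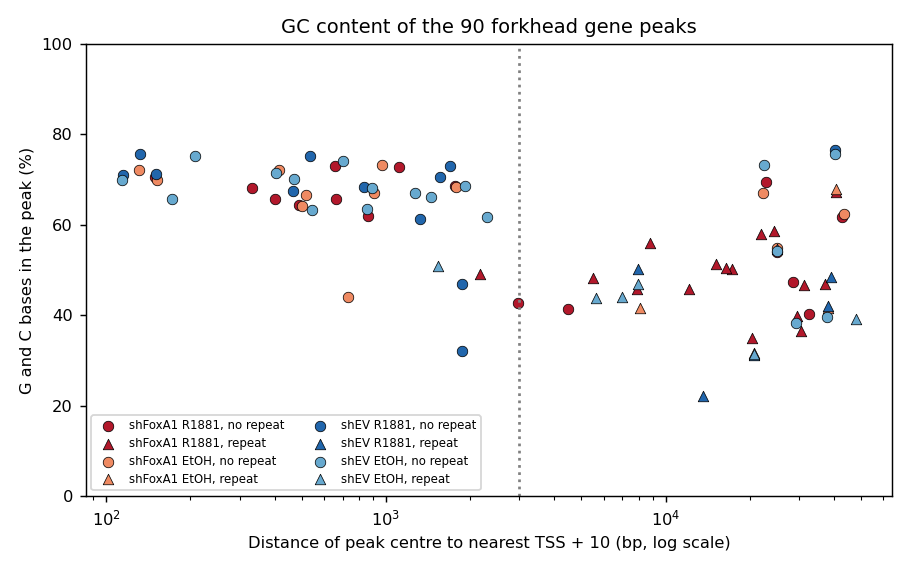
GC content in percent of each forkhead gene peak against the distance of its centre to the nearest TSS (log axis, 10 bp added), coloured by library, with triangles for peaks in repeats and a dotted line at 3 kb. The 45 peaks left of the line have a median of 68.1% and include 2 triangles, and the 45 right of it have a median of 47.3% and include 30.

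The rest of the forkhead family and the targets of its members gave the context. Of 34 other forkhead genes, most of them developmental factors, 18 had a peak in shFoxA1 R1881, 18 in shFoxA1 EtOH, 11 in shEV R1881 and 14 in shEV EtOH. The shares of all coding genes, for these and the target lists below, were 51.6% in shFoxA1 R1881 and 49.1% in shFoxA1 EtOH. They were 37.5% in shEV R1881 and 36.5% in shEV EtOH. Those with a peak in every list were FOXA1, FOXB2, FOXC1, FOXD1, FOXI1, FOXJ2, FOXL1, FOXN4 and FOXQ1. The best FOXL1 peak scored 411 in shFoxA1 R1881, 235 in shFoxA1 EtOH, 250 in shEV R1881 and 136 in shEV EtOH. FOXA1, the gene the hairpin targets, had 5 peaks in shFoxA1 R1881, 5 in shFoxA1 EtOH, 3 in shEV R1881 and 3 in shEV EtOH, none scoring above 85. Further peaks within 50 kb of the FOXA1 TSS were assigned to its neighbour TTC6: 2 in shFoxA1 R1881, 6 in shFoxA1 EtOH, 2 in shEV R1881 and 1 in shEV EtOH, the highest scoring 136 in shEV EtOH. With R1881 the 34 other forkhead genes gained 16 of 38 peaks and lost 11 of 34 with shFoxA1. With shEV they gained 8 of 18 and lost 13 of 22. Of all peaks near coding genes 43.1% were gained and 34.9% lost with shFoxA1, and 46.1% gained and 42.5% lost with shEV. Of 20 FOXO target genes all 20 had a peak in shFoxA1 R1881, 19 in shFoxA1 EtOH, 14 in shEV R1881 and 16 in shEV EtOH. Their gains and losses with R1881 were 17 of 47 and 17 of 47 peaks in shFoxA1. In shEV they were 11 of 25 and 17 of 32. Of 16 mitotic targets of FOXM1 6 had a peak in shFoxA1 R1881, 7 in shFoxA1 EtOH, 7 in shEV R1881 and 5 in shEV EtOH. They gained 3 of 10 peaks and lost 5 of 12 with R1881 in shFoxA1. In shEV they gained 3 of 8 and lost 2 of 7. For shFoxA1 over shEV in EtOH, the 10 forkhead genes gained 4 of 16 peaks and lost 8 of 24. The other family genes gained 11 of 34 and lost 2 of 22. The FOXO targets gained 23 of 47 and lost 7 of 32, and the FOXM1 targets gained 7 of 12 and lost 2 of 7. Of all peaks near coding genes 51.2% were gained and 25.3% lost. The difference between the lists was not tested.

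By the score percentiles of their best peaks in the 4 lists, the coding genes most like the 3 highest-ranked forkhead genes were PCDHB15 for FOXN3 (distance 0.773 percentile points), MOCOS for FOXK2 (2.26) and CCDC86 for FOXK1 (2.14). The distance is Euclidean over the 4 lists, among 5051 coding genes with a peak in all of them.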

How the data were processed

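Per the submitters' processing notes, HOMER 4.11.1, deepTools 3.5.0, BWA 0.7.12, Trimmomatic 0.36, Picard 2.0.1, MACS2 and the build hg38 were used upstream, in an order that is not stated. Per the file headers, each deposited list is a HOMER annotation of the peaks of 1 library. The deposited peak score is the authors' own and was ranked within lists only, since the sources used here do not define it. The deposited GC fraction (0 to 1) was printed as percent, and the distance to the TSS was used as deposited. Input libraries were not analysed here, and read depth is unknown.

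From these lists, overlaps of at least 1 bp, merged regions and score percentiles were computed with Python 3.11.15, pandas 2.3.3, numpy 2.4.6 and scipy 1.17.1; figures used matplotlib 3.10.9. The overlap code was tested on simulated data. Coding genes, symbols and promoter windows came from RefSeq tables (GRCh38.p14). The TSS implied by the files matched a RefSeq window's start within 2 bp for 79 of the 85 peaks at the genes with windows. Named were all 10 genes and, of their peaks, those in all 4 lists, the best per list, those in both libraries of a treatment or of shFoxA1 or shEV only, and promoter peaks. The genes, lists and forkhead and androgen words were chosen with earlier results of these data known, and the GC box, the FOXM1 and FOXN3 antisense details and the region widths after the values were seen. A list of FOXO regulators is not reported here. Alternatives were a stricter overlap, the 10000 highest-scoring peaks and 25 kb.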

Additional observations from a re-analysis of the deposited data

Results flagged for a closer look

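The number of forkhead gene peaks moved in opposite directions with R1881 in shFoxA1 and shEV cells, and the difference was not tested because each group is a single library. Over all 10 genes, R1881 minus EtOH was 16 peaks with shFoxA1 and -6 with shEV. At FOXK2 it was 4 with shFoxA1 and -2 with shEV, at FOXP1 3 with shFoxA1 and -2 with shEV, and at FOXO3 3 with shFoxA1 and -1 with shEV. The FOXO3 counts include regions that held 1 peak in R1881 and 2 peaks in EtOH of the same cells. In shEV cells the FOXO3 peaks of both lists lay in the same regions. The difference there comes from 1 region (chr6:108557265-108558743) with 1 peak in R1881 and 2 in EtOH. Beyond 50 kb FOXP1 had 9 further peaks in shEV R1881 and 6 in shEV EtOH, so its negative sign with shEV holds only within the limit. Over all peaks near coding genes the R1881 list was the longer in shFoxA1 cells (19456 against 17006 in EtOH) and in shEV cells (11947 against 11214). The 34 other forkhead genes had the same opposite signs, with 38 peaks in shFoxA1 R1881 against 34 in shFoxA1 EtOH, and 18 in shEV R1881 against 22 in shEV EtOH. The 2 target lists did not. FOXO targets had 47 peaks in each shFoxA1 list, and 25 in shEV R1881 against 32 in shEV EtOH. FOXM1 targets had the reverse signs, with 10 in shFoxA1 R1881 against 12 in shFoxA1 EtOH, and 8 in shEV R1881 against 7 in shEV EtOH.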

How the results depend on the processing

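Requiring that at least 50% of a peak be overlapped left 6 of the 8 counts of gained and lost peaks within 1.5 times their value. The exceptions were 5 lost with R1881 in shFoxA1 (3 as reported) and 9 gained with shFoxA1 in EtOH (4 as reported). With each list cut to its 10000 top peaks by score, 8 of 12 counts moved further. With R1881 there were 1 gained in shFoxA1, and 2 gained and 3 lost in shEV. With shFoxA1 over shEV there were 2 gained and 2 lost in R1881, 2 gained and 1 lost in EtOH, and 5 genes had a peak in shEV EtOH. With a limit of 25 kb to the TSS 9 of 12 counts stayed within 1.5 times, and the others were 2 lost with shFoxA1 in R1881, and 2 gained and 5 lost with shFoxA1 in EtOH. The cause of these changes was not tested. The cut lists and the shorter distance also leave fewer peaks to count. No paired analysis was possible because each group has 1 library and the labels carry no replicate numbers. For the same reason no replicate was left out.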
